A study of Schizosaccharomyces pombe with 12 samples.

Results

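The annotated non-coding RNAs of Schizosaccharomyces pombe (fission yeast) that are labelled neither antisense nor intergenic form a mixed set. It holds structural RNAs, RNAs of meiosis, RNAs of the centromere repeats, RNAs first cloned as poly(A)-bearing transcripts, and many predicted RNAs without a name. They were taken from the 3 deposited comparison tables as rows of type ncRNA whose product text names neither antisense nor intergenic RNA. This gave 364 of 6888 genes, and 355 of them are also in the table of the double mutant, which lists 6871 genes. Among the 1501 rows of type ncRNA, 694 are antisense and 442 are intergenic, and 1 further row with a matching product was left out by the choice of members.

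Poly(A)-selected RNA was sequenced from 4 strains with 3 samples each, grown to log phase in a yeast extract medium with casamino acids, adenine and glucose. Wild type was h-, with the strain names L972, L973 and L974 for its samples. The med20Δ strain was labelled h+ leu1-32 ura4-D18 with med20 replaced by NAT. The rrp6Δ strain was h- with Leu1-32, His2, Ura4 DS/E and 216, rrp6 replaced by KanMx6, and a ura+ marker inserted at Otr1R(Sph1), the outer repeat of a centromere. The double mutant carried med20:natMX and rrp6∆::KanMx6 with leu1-32 and, by sample, ura4-D18, ura4-D19 or ura4-D20. Wild type and rrp6Δ share their mating type, med20Δ differs from both, and auxotrophic markers differ between the strains, so markers, and for med20Δ mating type, cannot be told apart from the deletions. The data go against the labelled ura4-D18 allele of the med20Δ strain: the authors' deposited tables give ura4 a mean of 2073 in the libraries labelled med20Δ beside 1945 in wild type, and of 3.39 in the double mutant beside 2360.

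Med20 is a subunit of the Mediator head, which links transcription factors to RNA polymerase II. Rrp6 is a 3′ to 5′ exonuclease of the nuclear exosome, which trims structural RNAs and removes many unstable transcripts. In fission yeast the protein Mmi1 binds the RNA motif UNAAAC in meiotic transcripts and hands them to the exosome during vegetative growth. The RNAs named nam (non-coding RNA associated with Mmi1) and sme2, whose RNA captures Mmi1 in meiosis, belong to this system. Transcripts of the centromere repeats feed the RNA interference pathway that keeps centromeres in heterochromatin. Because RNA was selected by its poly(A) tail, the amount of an RNA and the fraction of its molecules with a tail both set its level, and these cannot be told apart, nor can fewer expressing cells and less RNA per cell.

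The sequences below come from RefSeq assembly ASM294v3, to which 305 of the 364 RNAs could be matched (298 by locus tag and 7 by synonym). The deposited tables' build was not given in the sources used here, and positions are those of the RefSeq models. The first set shows the letters TNAAAC, the DNA form of the Mmi1 motif, in capitals, because the RNAs that carry it include sme2 and nam3, which rose in rrp6Δ and the double mutant. The sme2 stretch is the last 200 bases of its model (chrII:339346-339545, minus strand), and it holds 7 of the 9 copies found in 1562 bases. Among 8378 windows of 200 bases tiled from the 3′ ends of 1409 matched non-coding RNAs, 31.7% held the motif on the transcribed strand and 32.5% on the other strand, and 1 window, this one, held 7 or more. Overlapping copies were counted. The other stretches are the densest windows of nam3 (chrII:4465884-4465963, minus strand), of the centromeric nam5 (chrI:3753740-3753859, plus strand) and of SPNCRNA.323 (chrII:683380-683459, plus strand), a predicted RNA that rose in rrp6Δ. In contrast, nam5 had similar mean normalised counts in wild type and rrp6Δ, at 5.50 and 5.97. Its means were 20.6 in med20Δ and 19.6 in the double mutant.
sme2: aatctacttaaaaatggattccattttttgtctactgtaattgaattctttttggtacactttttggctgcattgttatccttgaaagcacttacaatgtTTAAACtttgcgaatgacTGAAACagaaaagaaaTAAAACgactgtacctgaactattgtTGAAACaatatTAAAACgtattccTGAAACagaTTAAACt
nam3: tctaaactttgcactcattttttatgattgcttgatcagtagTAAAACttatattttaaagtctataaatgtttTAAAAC
nam5: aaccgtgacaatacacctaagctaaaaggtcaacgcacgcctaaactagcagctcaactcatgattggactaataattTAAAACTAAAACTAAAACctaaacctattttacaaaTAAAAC
SPNCRNA.323: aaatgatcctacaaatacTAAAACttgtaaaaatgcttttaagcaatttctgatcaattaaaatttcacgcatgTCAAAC

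The second set gives the last 80 bases of the RefSeq models of mrp1 (chrI:1234770-1234849, plus strand) and srp7 (chrI:4268837-4268916, plus strand), with the final 20 in capitals, since a tail would be added at such an end. Neither stretch ends in a run of A in the genome.
mrp1: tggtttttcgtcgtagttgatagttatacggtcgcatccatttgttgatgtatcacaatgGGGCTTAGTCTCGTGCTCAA
srp7: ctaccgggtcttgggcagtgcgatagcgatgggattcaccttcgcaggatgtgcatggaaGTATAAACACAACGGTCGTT

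The last sequence is from the centromeric RNA SPNCRNA.234 (chrI:3786711-3786860, plus strand). Capitals mark bases covered by a run of 36 bases found once in the genome. These 72 bases are all such bases in a model of 1032, which shows why a centromeric RNA is uncertain as a single locus.
SPNCRNA.234: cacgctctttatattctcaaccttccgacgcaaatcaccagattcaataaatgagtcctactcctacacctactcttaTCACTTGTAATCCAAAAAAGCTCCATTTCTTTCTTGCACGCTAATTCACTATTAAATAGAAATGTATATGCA

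The deposited tables give a mean normalised count for each strain, a fold change, a log2 fold change and a p-value adjusted over all genes (DESeq). A gene was called where that adjusted p was under 0.05. The counts of single libraries were recovered from the digits of the means, and the 12 libraries held 5284255 to 9026968 counts in 6478 genes. Libraries are numbered 1 to 3 within a strain in order of this recovery and do not carry the replicate letters of the labels. These RNAs were low, with a median mean of 3.90 in wild type beside 440 for all genes in the med20Δ table, and 70 of 364 were at the lowest value the table can hold in wild type, which equals 1 count in every library. Without SPNCRNA.53 (prl53), whose mean was too high to be split, they took 0.171% to 0.184% of counts in wild type, 0.164% to 0.201% in med20Δ, 0.299% to 0.362% in rrp6Δ and 0.367% to 0.746% in the double mutant. The deleted genes were low: by the authors' deposited tables, the log2 fold change of med20 was -7.14 (med20Δ) and -4.82 (double mutant), and that of rrp6 was -10.01 (rrp6Δ) and -10.38 (double mutant).

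Many of these RNAs were higher in rrp6Δ, few in med20Δ, and the double mutant had the largest count of higher calls of the 3 strains. By the authors' deposited tables, 42 of 364 were called higher and 1 lower in rrp6Δ (11.5% and 0.275%), beside 4.97% and 1.0% of all genes (5.97% in either direction). In med20Δ 5 were called higher and 3 lower (1.37% and 0.824%), beside 1.12% and 1.25% of all genes (2.37% in either direction) in that deposited table, shares close to the background there. In the double mutant 61 of 355 were called higher and 2 lower (17.2% and 0.563%), beside 8.59% and 6.71% of all genes there (15.3% in either direction). With limma on recovered counts, 12 of 173 members tested were higher and 4 lower in med20Δ, beside 133 and 115 of 5900 genes (2.25% and 1.95%, 4.2% in all). By this test the share of higher calls was above that of all genes. Only genes with a mean of at least 10 over the 12 libraries were tested. An RNA low in most strains could pass through the strain where it was high, which can favour higher calls there. The share is therefore not read as a result about these RNAs. Of the 12, 6 were centromeric RNAs, which share repeats. By the same limma fit 43 members were higher and 1 lower in rrp6Δ, beside 6.31% and 1.8% of all genes (8.1% in all), and 81 were higher and 9 lower in the double mutant, beside 15.4% and 14.8% (30.2% in all). By the authors' deposited tables the median log2 fold change over the listed members was 0.01, 0.56 and 0.92 for med20Δ, rrp6Δ and the double mutant, and over all genes it was 0.00, -0.04 and -0.03. An RNA at the lowest value in both strains has a log2 fold change of 0.01, -0.34 or -0.56 in the respective table, set by the scaling alone, and 46, 16 and 0 members were in that position. Protein-coding genes had medians of -0.03, -0.12 and -0.18 in those deposited tables. The 3 tables share the wild-type samples. Of the 42 RNAs called higher in rrp6Δ, 31 were also called higher in the double mutant, which is 73.8% of the first list and 50.8% of the second. Both strains lack Rrp6, and the overlap was not worked out for all genes. Whether it is particular to these RNAs is therefore not known.

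**Figure D1:**
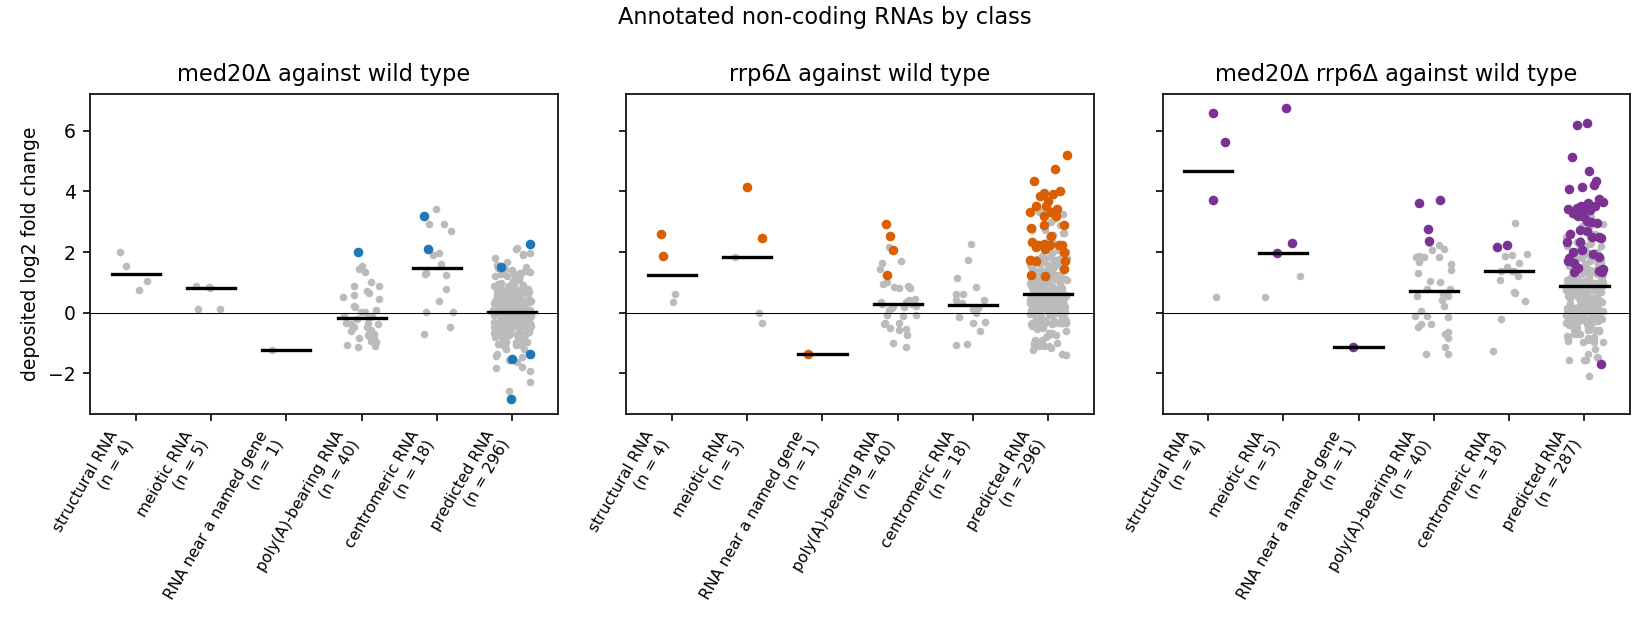
Deposited log2 fold change of each annotated non-coding RNA against wild type, by class, in med20Δ, rrp6Δ and the double mutant; coloured points passed the adjusted p of 0.05, grey points did not, and black lines are class medians. The medians of the 296 predicted RNAs in med20Δ and rrp6Δ lie at 0.01 and 0.62. In the double mutant 3 of 4 structural RNAs were called higher, beside 8.59% of all genes.

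By the deposited tables, 1.12% of all genes were called higher in med20Δ, 4.97% in rrp6Δ and 8.59% in the double mutant. Of the 4 structural RNAs, the deposited tables called 0 in med20Δ, 2 higher in rrp6Δ and 3 higher in the double mutant. The set holds mrp1, the RNA of RNase MRP, which cuts ribosomal RNA precursors; rrk1, the RNA of RNase P, which trims the 5′ ends of tRNAs; srp7, the RNA of the signal recognition particle; and ter1, the telomerase RNA. The recovered level of mrp1 (normalised count, scaled over 12 libraries) was 18, 36.1 and 33.9 in wild type, 60.6, 238 and 59.6 in med20Δ, 111, 94.2 and 104 in rrp6Δ, and 3415, 2032 and 2788 in the double mutant. Every double-mutant library lay far above every other library, and the single mutants lay above wild type. Its fold change in the authors' deposited tables was 3.63 in rrp6Δ (adjusted p = 0.000368) and 96.0 in the double mutant (adjusted p = 4.43e-28); it was 4.03 in med20Δ (adjusted p = 0.668, not called). By limma mrp1 was higher in med20Δ (log2 1.73 ± 0.45 SE, adjusted p = 0.0476).

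The rrk1 level was 34.8, 36.1 and 44.3 in wild type, 49.1, 139 and 50.7 in med20Δ, 189, 203 and 288 in rrp6Δ, and 2875, 1314 and 1393 in the double mutant. No strain overlapped another. In the authors' deposited tables rrk1 rose 6.10-fold in rrp6Δ (adjusted p = 2.64e-09) and 49.8-fold in the double mutant (adjusted p = 8.37e-07), with a fold of 2.05 in med20Δ (adjusted p = 0.784). Its RefSeq model overlaps the proteasome gene pre10 on the opposite strand, and whether the counting used strand was not given in the sources used here, so reads of the pair cannot be told apart.

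The level of srp7 varied within each strain, at 29.2, 321 and 369 in wild type, 87.8, 1581 and 460 in med20Δ, 527, 109 and 431 in rrp6Δ, and 4218, 769 and 4232 in the double mutant. The second double-mutant library lay below the second med20Δ library, and every double-mutant library lay above every wild-type and rrp6Δ library. The authors' deposited table gave a call of higher in the double mutant (13.2-fold, adjusted p = 0.0139) and not in med20Δ or rrp6Δ (adjusted p = 0.917 and 0.85). The telomerase RNA ter1 was not called in any deposited table, with folds of 1.69, 1.27 and 1.42 in med20Δ, rrp6Δ and the double mutant (adjusted p = 0.403, 0.875 and 0.447), and its recovered levels ran from 142 to 315. Its med20Δ libraries (237 to 315) lay above those of wild type (142 to 215), a difference that limma did not call either (log2 0.77 ± 0.28 SE, adjusted p = 0.166), while rrp6Δ overlapped the other strains.

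Other RNAs that normally lack a poly(A) tail moved between the same libraries. The 257 tRNA, rRNA, snRNA and snoRNA genes with recovered counts took 0.0375%, 0.192% and 0.161% of counts in wild-type libraries 1, 2 and 3, 0.0584%, 0.224% and 0.195% in med20Δ, 0.264%, 0.122% and 0.239% in rrp6Δ, and 0.843%, 0.302% and 0.605% in the double mutant. Libraries low in these RNAs were also the lowest of their strain in srp7. The 4 structural RNAs summed to 237 to 608 in wild type, 435 to 2273 in med20Δ, 714 to 997 in rrp6Δ and 4379 to 10745 in the double mutant. The part of tail-less RNA carried over or tailed in each library in these results was not tested.

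**Figure D2:**
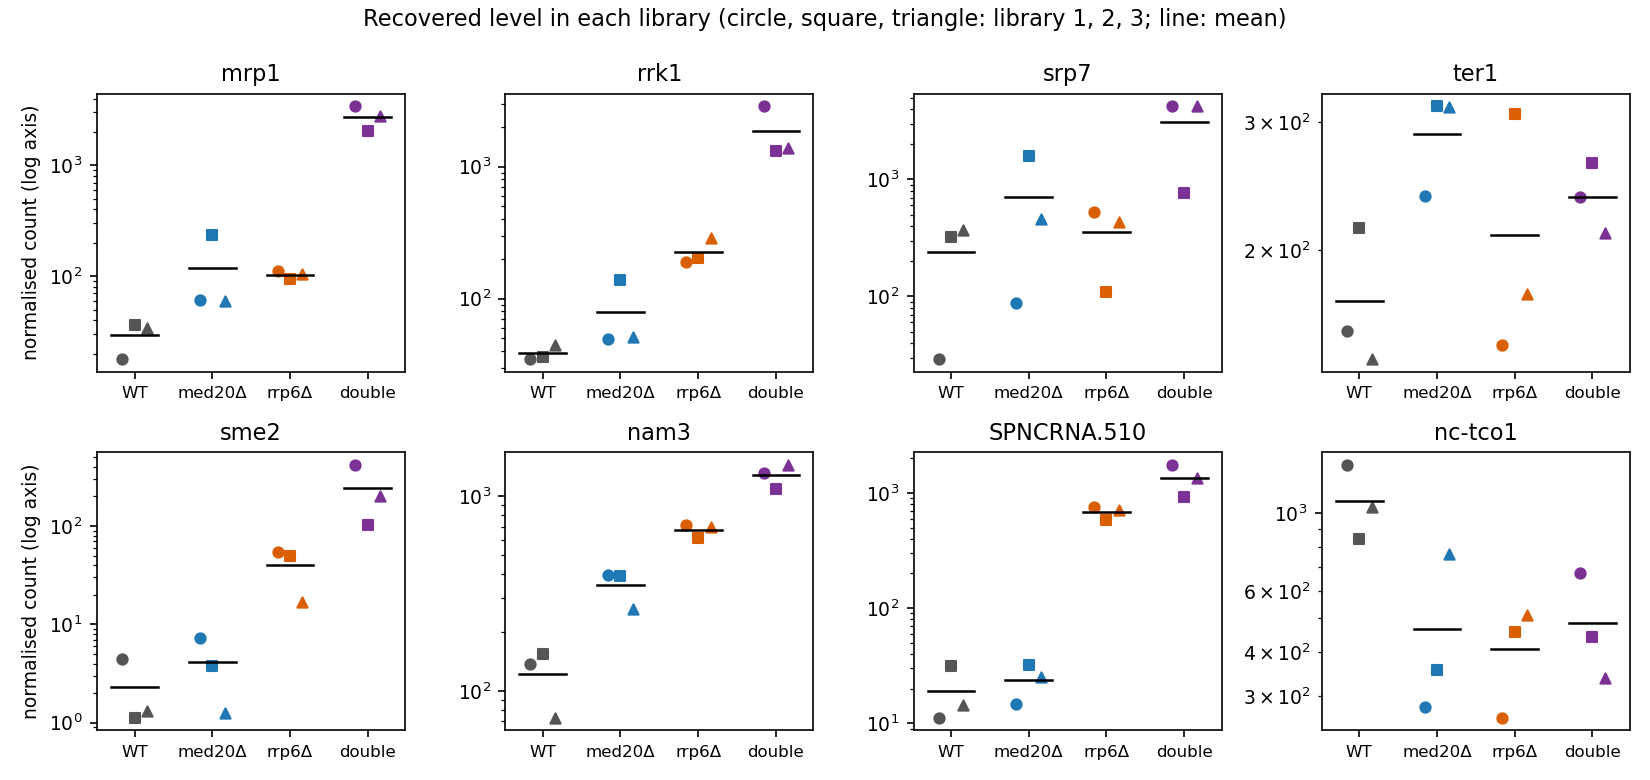
Recovered normalised counts (log axis) of 8 RNAs in the 12 libraries; circles, squares and triangles are libraries 1, 2 and 3 of each strain, and lines are strain means. Every double-mutant library lies above all others for mrp1 and rrk1, while for srp7 the double mutant overlaps med20Δ, and for ter1 rrp6Δ overlaps each other strain.

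Among the 5 RNAs of meiosis, 2 were called higher in rrp6Δ and 3 in the double mutant by the deposited tables, and none in med20Δ. Of all genes, 4.97%, 8.59% and 1.12% were called higher in those strains. The level of sme2 was 4.49, 1.13 and 1.30 in wild type and 7.32, 3.82 and 1.27 in med20Δ, at or near the lowest value. It was 53.8, 49.5 and 17.0 in rrp6Δ and 421, 103 and 201 in the double mutant, and these strains overlapped neither each other nor the first pair. Its rise was 17.9-fold in rrp6Δ (adjusted p = 0.00138) and 108-fold in the double mutant (adjusted p = 0.000423) by the authors' deposited tables, folds that rest on a few wild-type counts. The first bases of its RefSeq model overlap mrpl8, a mitochondrial ribosomal protein gene, on the same strand. By those tables meu19 was 5.48-fold higher in rrp6Δ (adjusted p = 0.0123) and 4.92-fold higher in the double mutant (adjusted p = 2.23e-06), while meu3 was 3.88-fold higher in the double mutant (adjusted p = 0.00075); both are under 50% unique in the genome by runs of 36 bases. The RNAs meu11 and meu20 were not called in any deposited table; meu20, which overlaps imt2 on the same strand, was higher in the double mutant than in rrp6Δ by limma (log2 1.56, adjusted p = 0.022).

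The RNA nam3 (SPNCRNA.532), which binds Mmi1, was 1 of 3 called higher in all deposited tables, beside SPNCRNA.31 and SPNCRNA.529. The share of all genes called higher in all 3 tables, which share the wild-type samples, was not worked out. The level of nam3 was 138, 155 and 72.9 in wild type, 396, 390 and 263 in med20Δ, 715, 612 and 697 in rrp6Δ, and 1319, 1089 and 1457 in the double mutant. No strain overlapped another. Its deposited folds against wild type were 2.86, 5.72 and 10.8 in med20Δ, rrp6Δ and the double mutant (adjusted p = 0.00217, 1.91e-10 and 1.35e-14, authors' deposited tables). Its nearest protein-coding neighbour in RefSeq, SPBPB2B2.05, lies upstream on the opposite strand, 323 bases away, and had log2 fold changes of 0.94, 2.05 and 1.88 in the same deposited tables (adjusted p = 0.3, 4.12e-07 and 0.000126). SPNCRNA.529, at 7.91 to 14.3 in wild type and 85.8 to 102 in the double mutant, rose 4.82-, 3.28- and 9.26-fold there (adjusted p = 0.0321, 0.0371 and 9.66e-07, authors' deposited tables). SPNCRNA.31, whose call in med20Δ was lost by limma in 4 fits that leave out a library (adjusted p = 0.0822 to 0.127), rose 4.0-, 2.39- and 13.2-fold in those tables (adjusted p = 0.00257, 0.0338 and 0.00565, authors' deposited values); its model overlaps the short protein-coding gene SPAPB1A11.06 on the same strand.

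The predicted RNAs supplied most calls, 34 of 296 higher in rrp6Δ and 49 of 287 in the double mutant by the deposited tables, with 0 and 1 lower. Over all genes, 4.97% and 8.59% were higher, and 1.0% and 6.71% were lower. SPNCRNA.510 was the RNA with the highest fold change in rrp6Δ among called members with a mean of at least 50. Its level was 11.2, 31.6 and 14.3 in wild type, 14.6, 31.8 and 25.4 in med20Δ, 762, 586 and 712 in rrp6Δ, and 1761, 916 and 1356 in the double mutant. The med20Δ libraries overlapped wild type, and all libraries without Rrp6 lay above both. It rose 37.2-fold in rrp6Δ and 72.4-fold in the double mutant (authors' deposited tables, adjusted p = 7.34e-33 and 1.06e-16). It had no RefSeq match, as did SPNCRNA.515 and SPNCRNA.507, which rose 75.8- and 35.4-fold in the double mutant in that deposited table (adjusted p = 0.000423 and 0.00725). SPNCRNA.507 varied like srp7, at 2.25, 146 and 102 in wild type and 4408, 448 and 3749 in the double mutant, and it was not called in rrp6Δ (adjusted p = 0.0654, authors' deposited table).

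Further predicted RNAs rose more than 10-fold in rrp6Δ. SPNCRNA.323 was at 22.5, 23.7 and 14.3 in wild type, 14.6, 19.1 and 24.1 in med20Δ, 284, 259 and 212 in rrp6Δ, and 236, 273 and 218 in the double mutant. The 2 strains without Rrp6 overlapped each other and lay above the 2 strains with it. It rose 12.9-fold in rrp6Δ and 12.3-fold in the double mutant (authors' deposited tables, adjusted p = 3.21e-16 and 1.05e-11). SPNCRNA.380 and SPNCRNA.292 rose 11.6- and 10.7-fold in rrp6Δ (adjusted p = 1.37e-11 and 4.76e-11, authors' deposited table), and sno530 (SPNCRNA.530), a short RNA with a snoRNA-style name, rose 16-fold there (adjusted p = 3.33e-08). SPNCRNA.491, which was at 440, 126 and 326 in the rrp6Δ libraries and 649, 65.9 and 476 in the double mutant, rose 15.3- and 20.3-fold (authors' deposited tables, adjusted p = 0.00205 and 0.0236).

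The position of the RNAs relative to their neighbours was read from the annotation. RefSeq gave a position for 36 of the 42 RNAs called higher in rrp6Δ. For 18 of these (50%) the nearest protein-coding gene lay upstream on the opposite strand, as at a shared promoter region, against 72 of 269 of the other matched members (26.8%). A downstream gene on the same strand was the nearest for 5 of 36 (13.9%) and for 84 of 269 (31.2%). These shares are a description, and no test was made of them. Members with such an upstream gene had a median log2 fold change of 1.16 in rrp6Δ, against 0.42 for the rest (n = 90 and 215, authors' deposited table), and 1.33 against 0.79 in the double mutant. In med20Δ both medians were near 0, at 0.01 and 0.04. Called RNAs were higher expressed than the rest, with a median wild-type mean of 9.39 against 3.68; among those with a wild-type mean of 5 or more, 13 of 37 with such a gene and 14 of 100 without were called higher. Examples are SPNCRNA.491, 90 bases from ctp1, a DNA repair gene, and SPNCRNA.323, 431 bases from knk1. Of 35 neighbours listed in the rrp6Δ table, 2 were called higher and 0 lower, with a median log2 fold change of -0.04 in that deposited table. Of protein-coding genes, 1.62% were higher and 1.21% lower there, beside 4.97% and 1.0% of all genes. The count of 2 is small, and its share was not tested. The motif TNAAAC stood at 2.95 copies per kilobase on the transcribed strand of the 36 and at 2.29 in the other 269, with 1.83 and 2.38 on the other strand. No such difference was seen for calls in the double mutant, with 2.31 on the transcribed strand of the 49 matched RNAs called higher and 2.32 in the other 248. For med20Δ the values were 1.71 in the 5 called higher and 2.38 in the rest.

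**Figure D3:**
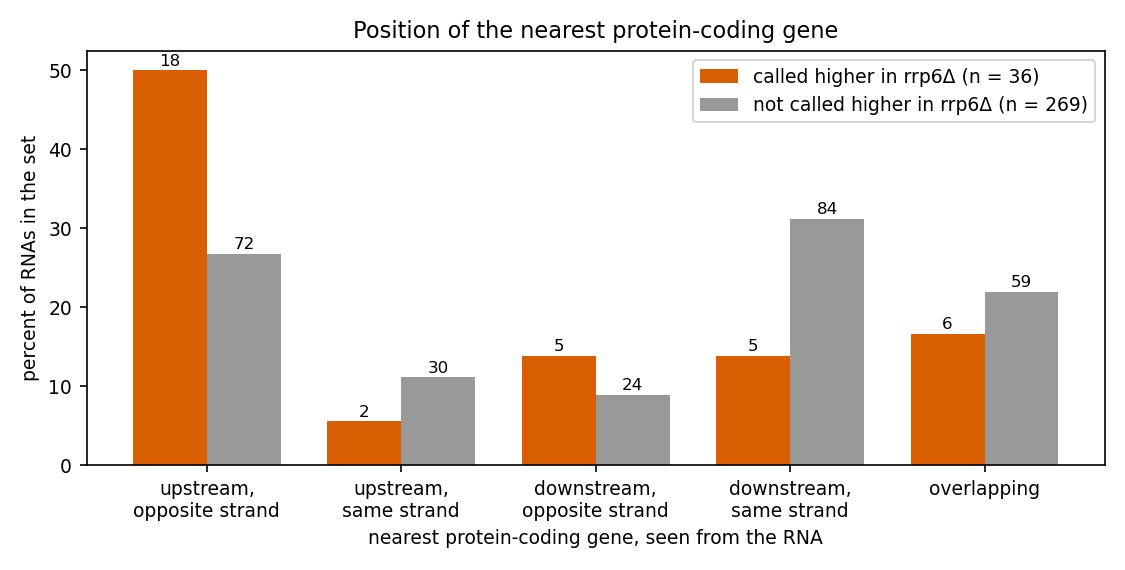
Share of RNAs (percent) by the position of the nearest RefSeq protein-coding gene, seen from the RNA, for the 36 matched RNAs called higher in rrp6Δ and the 269 others; numbers on the bars count RNAs. The upstream, opposite-strand position holds 18 of the 36 and 72 of the 269.

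The summed level of the 18 centromeric RNAs was higher in both strains without Med20 than in wild type. It was 102, 185 and 156 in wild type, 946, 542 and 367 in med20Δ, 215, 126 and 201 in rrp6Δ, and 567, 264 and 383 in the double mutant. The med20Δ and double-mutant libraries lay above all wild-type and rrp6Δ libraries. By the authors' deposited tables their median log2 fold change was 1.46, 0.24 and 1.39 for med20Δ, rrp6Δ and the double mutant, and 12, 3 and 13 of 18 had a fold of at least 2. The share of all genes with such a fold was not worked out. In wild type these RNAs were low, with 3 of the 18 at the lowest value. Only 2 passed the deposited test in med20Δ, SPNCRNA.234 (9.21-fold, adjusted p = 2.25e-05) and SPNCRNA.360 (4.28-fold, adjusted p = 0.045), and 2 in the double mutant, SPNCRNA.232 (4.70-fold, adjusted p = 0.0219) and SPNCRNA.372 (4.53-fold, adjusted p = 0.0289), by the authors' deposited tables. Of all genes, 1.12% were called higher in med20Δ and 8.59% in the double mutant. All 18 have under 50% unique runs of 36 bases, 11 have none, and 88.2% of the runs of nam5 also occur in nam6, so reads cannot be assigned to 1 repeat and these RNAs are not independent of each other. The rrp6Δ strain is labelled with a marker inserted in an outer repeat, and its part in these values was not tested.

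The level of SPNCRNA.234 was 6.74, 18.1 and 3.91 in wild type, 120, 66.1 and 78.6 in med20Δ, 10.6, 7.61 and 9.46 in rrp6Δ, and 21.9, 11.3 and 26.5 in the double mutant. The med20Δ libraries stood apart, and the double mutant overlapped wild type. With limma on the recovered counts, SPNCRNA.234 was lower in the double mutant than in med20Δ (log2 -2.13 ± 0.50 SE, adjusted p = 0.0132), as were SPNCRNA.371 and SPNCRNA.231 (log2 -2.05 and -1.87, adjusted p = 0.0328 and 0.0383). The calls of SPNCRNA.371 and SPNCRNA.231 ended when libraries were scaled by total count and in fits that leave out a library. They were lost in 6 and 9 settings (limma adjusted p = 0.0564 to 0.121 and 0.0515 to 0.137). The call of SPNCRNA.234 ended without med20Δ library 1 (limma adjusted p = 0.0523). The interaction for SPNCRNA.234 was not called (log2 -2.31 ± 0.70 SE, adjusted p = 0.324). IRC1-L and IRC1-R, transcripts of the repeats that border the first centromere and not among the 18, rose 5.70- and 8.84-fold in the double mutant (authors' deposited table, adjusted p = 0.00537 and 0.000432). Neither holds a unique run of 36 bases. Their mean levels were 7.24 and 4.99 in wild type, 20.6 and 21.6 in med20Δ, and 16.2 and 17.6 in rrp6Δ.

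**Figure D4:**
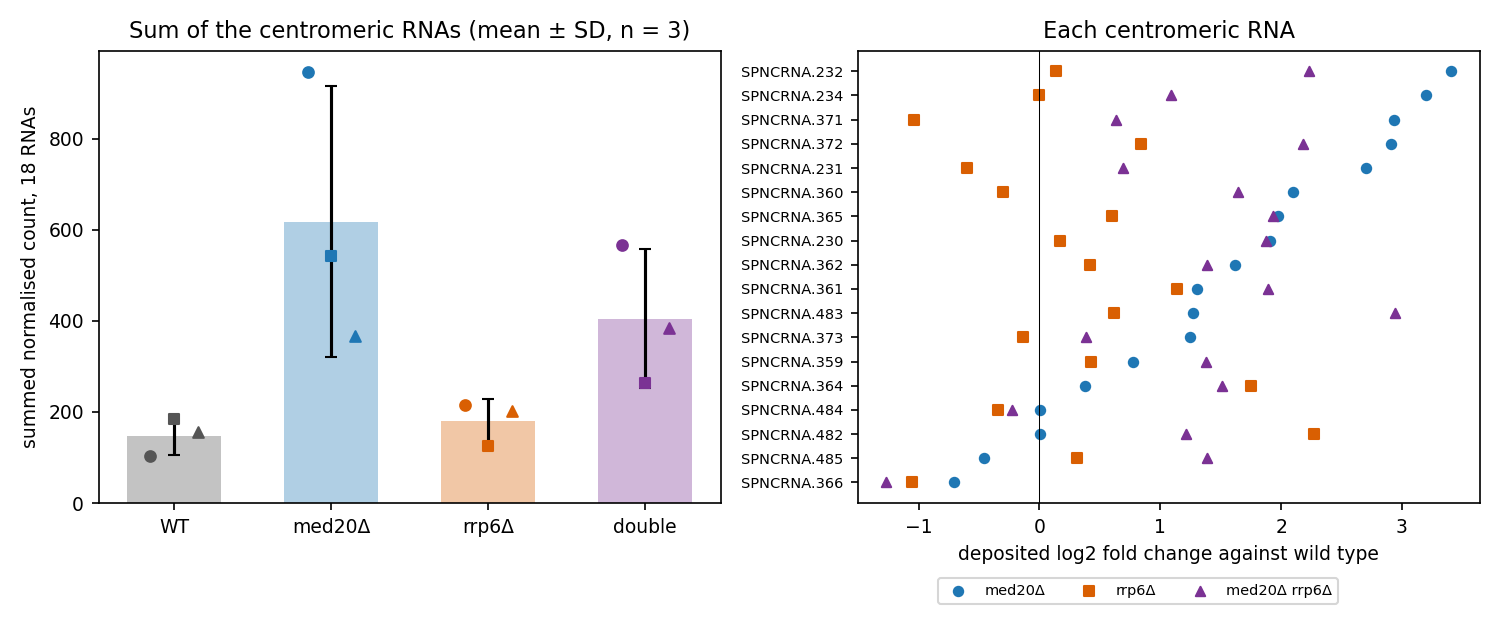
Left, summed normalised count of the 18 centromeric RNAs by library, with bars for strain means and error bars for SD (n = 3); right, deposited log2 fold change of each RNA against wild type in the 3 mutants. All med20Δ libraries (367 to 946) lie above all wild-type libraries (102 to 185).

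Of 40 poly(A)-bearing RNAs, the deposited tables called 1 higher in med20Δ, 4 in rrp6Δ and 4 in the double mutant, and 0 lower, beside 1.12%, 4.97% and 8.59% of all genes called higher. The level of prl4 was 62.9, 102 and 79.5 in wild type, 120, 127 and 87.5 in med20Δ, 649, 544 and 582 in rrp6Δ, and 1533, 763 and 633 in the double mutant. It overlaps the checkpoint gene mad2 on the opposite strand and rose 7.52- and 12.4-fold in rrp6Δ and the double mutant (authors' deposited tables, adjusted p = 2.1e-13 and 0.00107). The most abundant member was prl53, with a mean of 47467 in wild type and 44318 in med20Δ, and log2 fold changes of -0.10, -0.57 and -0.71 that were not called in any table (authors' deposited tables).

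Few RNAs fell. The RNA nc-tco1, a transcript of the tco1 locus, was at 1378, 842 and 1039 in wild type, 279, 355 and 763 in med20Δ, 260, 458 and 511 in rrp6Δ, and 674, 444 and 338 in the double mutant. Every mutant library lay below every wild-type library. The authors' deposited tables give log2 values of -1.36 in rrp6Δ (adjusted p = 0.00227) and -1.12 in the double mutant (adjusted p = 0.0341), while the value in med20Δ was -1.23 and was not called (adjusted p = 0.0723). With limma, the rrp6Δ call of nc-tco1 was lost in 5 settings (adjusted p = 0.0547 to 0.173). These were scaling by total count and fits that leave out a library. Its double-mutant call was lost in 6 (limma adjusted p = 0.0595 to 0.111), of the same kinds and with scaling on protein-coding genes. The RefSeq model of nc-tco1 overlaps the protein-coding gene mnr2 on the opposite strand. SPNCRNA.332, whose nearest gene downstream on the same strand is erg1, a sterol synthesis gene, fell by 1.53 in med20Δ and by 1.69 in the double mutant on the log2 scale (adjusted p = 0.0255 and 0.00495, authors' deposited tables). SPNCRNA.448 and SPNCRNA.293 also fell in med20Δ, by 1.36 and 2.85 on the log2 scale (adjusted p = 0.045 and 0.0361, authors' deposited table); 2.54% of the runs of 36 bases in SPNCRNA.448 are unique. SPNCRNA.293 was named because it completes the count of 3, after its values were seen. The calls of SPNCRNA.332 and SPNCRNA.448 in med20Δ did not hold with limma, and that of SPNCRNA.332 in the double mutant was lost in 3 limma fits that leave out a library (adjusted p = 0.0602 to 0.0895).

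Loss of Med20 was then read where Rrp6 was already absent, by limma between the double mutant and rrp6Δ. The log2 values are on the scale of log2(normalised count + 1), which understates changes of low RNAs. Genes were tested where the mean over all 12 libraries was at least 10. An RNA low in most strains could pass through the strain where it was high. This can favour calls of higher in that strain, in this and the other limma comparisons. By this filter 173 of 364 members were tested. Of these, 14 were higher and 1 was lower in the double mutant, beside 4.49% and 3.71% of all 5900 genes tested (8.2% in all). Leaving out 1 library moved this count of 15 to between 3 and 21, with 3 without double-mutant library 1, 4 without rrp6Δ library 3, and 8 without rrp6Δ library 1 or double-mutant library 3. They were led by mrp1 (log2 4.69 ± 0.45 SE, adjusted p = 5.62e-05), SPNCRNA.279 (log2 3.17 ± 0.64 SE, adjusted p = 0.00896), rrk1 (log2 2.96 ± 0.39 SE, adjusted p = 0.000586), SPNCRNA.324 (log2 2.79 ± 0.51 SE, adjusted p = 0.0048) and sme2 (log2 2.49 ± 0.65 SE, adjusted p = 0.0301). SPNCRNA.279 was at 12.4, 5.65 and 3.91 in wild type, 9.41, 19.1 and 6.34 in med20Δ, 2.45, 4.76 and 0.946 in rrp6Δ, and 66.3, 25.1 and 15 in the double mutant. SPNCRNA.324, which lies 101 bases before the meiotic inducer gene mei3 on the same strand, was at 6.53, 8.56 and 4.73 in rrp6Δ and 64.4, 54.6 and 36.2 in the double mutant; mei3 itself was not called in the double mutant (log2 1.16, adjusted p = 0.266, authors' deposited table). The lower one was SPNCRNA.145, at 71.8, 83.7 and 72.8 in rrp6Δ and 16.4, 41.6 and 28.3 in the double mutant (log2 -1.46 ± 0.36 SE, adjusted p = 0.0231). Its call was lost in 4 limma fits that leave out a library (adjusted p = 0.0643 to 0.115), that of sme2 in 5 (adjusted p = 0.0501 to 0.165), and that of SPNCRNA.279 without rrp6Δ library 3 (adjusted p = 0.0508). The value for SPNCRNA.323 was not called (limma log2 -0.05, adjusted p = 0.94).

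Of the 12 members that limma called higher in med20Δ than in wild type, 6 were centromeric RNAs, and of 9 centromeric RNAs tested 2 were also higher in the double mutant than in rrp6Δ. Over all genes, limma called 2.25% and 4.49% higher in these comparisons. Called higher in both were 5 members, among them mrp1, SPNCRNA.31 and SPNCRNA.529. This overlap was not worked out for all genes, so whether it is particular to these RNAs is not known. The sign of the change was the same in both backgrounds for 71.1% of the 173 members and for 72.0% of all genes. The interaction, which asks whether the effect of losing Med20 differs with Rrp6 absent, was called for 0 of 173 members and for 0.237% of all genes (0.153% higher and 0.0847% lower) by limma. At an unadjusted limma p under 0.05 were 18 of 173 members and 411 of 5900 genes. The lowest adjusted p among members was that of mrp1 (limma log2 2.97 ± 0.64 SE, adjusted p = 0.102), and the next that of SPNCRNA.448 (limma log2 2.57 ± 0.61 SE, adjusted p = 0.127). Without med20Δ library 2, the interaction of mrp1 (SPNCRNA.82) and rrk1 (SPNCRNA.128) was called by limma (log2 3.62 and 2.58, adjusted p = 0.00235 and 0.0387), and without rrp6Δ library 2 that of SPNCRNA.448 was (log2 3.17, adjusted p = 0.0101).

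**Figure D5:**
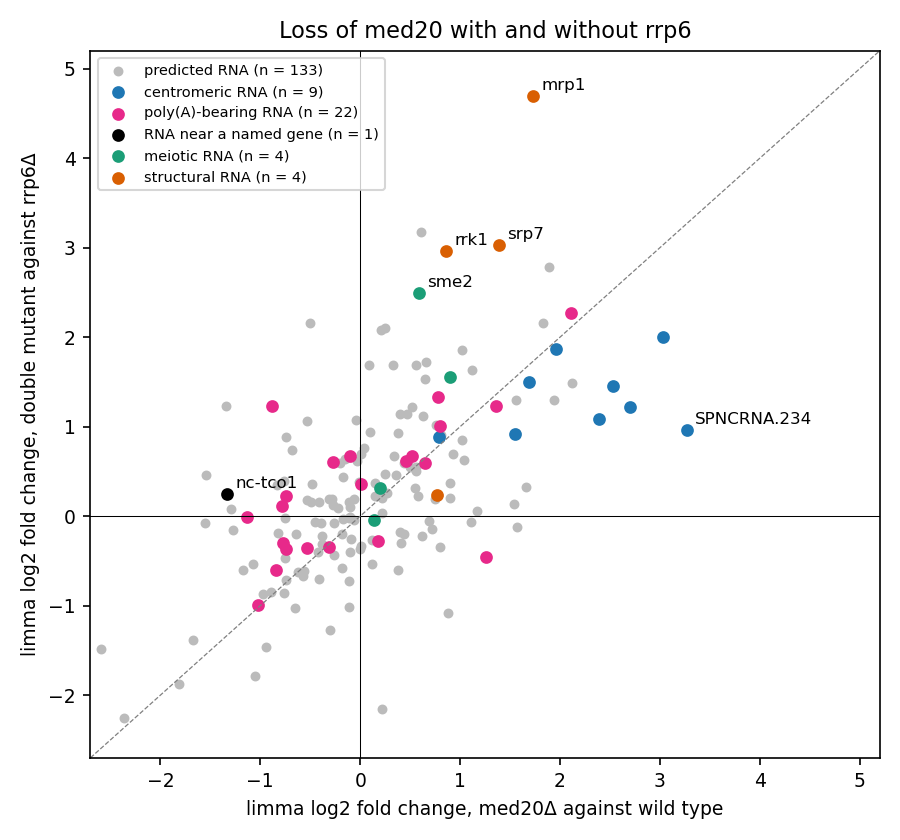
Limma log2 fold change of 173 RNAs for loss of med20 with rrp6 present (horizontal axis, med20Δ against wild type) and absent (vertical axis, double mutant against rrp6Δ); the dashed line marks equal change and the comparisons share no library. The structural RNA mrp1 lies at 4.69 on the vertical axis, and SPNCRNA.234 lies below the dashed line.

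In the double mutant against med20Δ, limma called 58 of 173 members higher and 4 lower, beside 8.98% and 4.9% of all genes (13.9% in all). The leading RNAs were SPNCRNA.510 (log2 5.77 ± 0.38 SE, adjusted p = 7.03e-07), sme2 (log2 5.53 ± 0.65 SE, adjusted p = 0.000117) and SPNCRNA.515 (log2 5.41 ± 0.77 SE, adjusted p = 0.000617). Next came SPNCRNA.507 (log2 5.18, adjusted p = 0.0253) and mrp1 (log2 4.80, adjusted p = 1.95e-05) by limma. The call of SPNCRNA.507 was lost in 4 limma fits that leave out a library (adjusted p = 0.0683 to 0.113). The 4 lower ones were the 3 centromeric RNAs above and SPNCRNA.298 (log2 -0.97 ± 0.29 SE, adjusted p = 0.042). The model of SPNCRNA.298 overlaps the hexose transporter gene ght4 on the same strand. Its call was lost in 12 settings (limma adjusted p = 0.0509 to 0.128). These were scaling by total count or on protein-coding genes, and fits that leave out a library.

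Of 24 genes of the nuclear exosome and its surveillance factors, 0 were called in med20Δ, 1 higher and 1 lower in rrp6Δ, and 3 lower in the double mutant, by the authors' deposited tables. The lower calls include the deleted rrp6. Over all genes, 1.25% were lower in med20Δ, 1.0% in rrp6Δ and 6.71% in the double mutant, and 4.97% were higher in rrp6Δ. The higher one in rrp6Δ was red1, which carries Mmi1 targets to the exosome (log2 1.00, adjusted p = 0.0301, authors' deposited table). The lower ones in the double mutant were rrp6 itself, dis3, the other exosome nuclease (log2 -1.17, adjusted p = 0.0123), and mtr4, an RNA helicase (log2 -1.12, adjusted p = 0.0162), in that deposited table. Of 23 Mediator genes, 1 was lower in med20Δ, 1 in rrp6Δ and 2 in the double mutant, the deleted med20 included. The other was med18, which sits next to Med20 in the head (authors' deposited tables, log2 -1.24 with adjusted p = 0.00588 in rrp6Δ, log2 -1.22 with adjusted p = 0.0174 in the double mutant). None of 11 termination and RNA interference genes was called in any of the deposited tables.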

How the data were processed

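The 12 libraries of 4 strains (3 each) were described by 3 deposited tables. The submitters' processing notes name Bowtie 0.12.7, a read aligner, and DESeq, a test for counts. The DESeq version used by the authors and the build, annotation, counting program and strand setting were not given in the sources used here. Per the file headers, the authors give a mean normalised signal per group (counts divided by size factors), its ratio as fold change, the log2 fold change, and a p-value with an adjusted p-value, which equals Benjamini-Hochberg over all rows. No column holds a single library.

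The 3 whole counts behind each deposited mean below 10000 were worked out from its 15 digits; 94.3% to 95.6% of means were solved, each in 1 way. Wild-type counts were the same in all 3 tables for all 6477 genes solved in each. On counts simulated for each group, the splits made 0 errors. Recovered counts were scaled by median ratios over the 12 libraries and fitted with limma 3.58.1 in R 4.3.3 on log2(normalised count + 1), with a mean-variance trend, a mean of at least 10 and all 4 strains in 1 model; Benjamini-Hochberg adjustment ran over all genes tested. In data simulated for the double mutant against rrp6Δ (5813 genes tested), limma called 92.0% of 4-fold increases, 46.0% of 2-fold increases and 4 unchanged genes. The changed genes were drawn only from genes with an rrp6Δ mean of at least 50. Most members lie below that, with a median rrp6Δ mean of 8.82, so these shares do not cover them. SDs and SEs come from the recovered counts (n = 3). Libraries held 5284255 to 9026968 counts.

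Comparisons with wild type used the deposited adjusted p-values, and comparisons between mutants used limma. The members, classes and gene lists were chosen with earlier results of these data known. Named were the 8 highest and 5 lowest called members with a mean of at least 50 per table, the 5 highest and 5 lowest per limma comparison, members with a standard name in the files, and those called alike or oppositely across tables; the opposite case did not occur. The labels do not say whether samples were separate cultures, so p-values reflect variation among these samples only, which may be technical. Positions, lengths and neighbours come from RefSeq ASM294v3. Tools also included Python 3.11.15.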

Additional observations from a re-analysis of the deposited data

How the results depend on the processing

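Counts of called members kept within 1.5 times of those reported under most settings. With limma in place of the deposited test, 16 members were called in med20Δ instead of 8, while the rrp6Δ and double-mutant counts stayed within that range (42 to 44 and 63 to 90 over the alternatives to the deposited test). A stricter filter, a mean of at least 50, tests fewer genes and left 5, 21 and 39 called by limma in med20Δ, rrp6Δ and the double mutant against wild type, 5 in the double mutant against rrp6Δ and 28 against med20Δ. With no filter, 25 were called in the double mutant against rrp6Δ. Leaving out 1 library at a time gave 6 to 16, 25 to 48 and 58 to 92 called members in the 3 comparisons with wild type by limma (an alternative added after seeing the data), 3 to 21 in the double mutant against rrp6Δ, 31 to 70 against med20Δ, and 0 to 2 in the interaction. The count against rrp6Δ is the least stable: it was 3 without double-mutant library 1, 4 without rrp6Δ library 3, and 8 without rrp6Δ library 1 or double-mutant library 3. Against med20Δ it was 31, 37 and 38 without double-mutant library 1, med20Δ library 3 and double-mutant library 3. By limma against wild type, the med20Δ count was 7 without wild-type library 2 or 3, 8 without med20Δ library 1 and 6 without med20Δ library 2, the rrp6Δ count was 25 without rrp6Δ library 1, and the double-mutant count was 58 without double-mutant library 1. In fits of limma without 1 library, a strain left with 2 libraries shares the spread of the others. Scaling by total count or on protein-coding genes raised the median of all genes in rrp6Δ by 0.25 and 0.12 and in the double mutant by 0.27 and 0.17 (log2), and no named member changed direction. Of 38 results on named members, 24 kept their call under every setting run, 14 lost it under at least 1, and 0 reversed; sme2 in the double mutant against rrp6Δ lost it in 5 fits that leave out a library (adjusted p = 0.0501 to 0.165, limma), and SPNCRNA.332 and SPNCRNA.448 in med20Δ were not called by limma in the full fit. The cause was not tested. No paired analysis was possible because the tables carry no replicate letters or numbers. Low counts limit the set: 286 of 364 members were called in no table, and 70 were at the lowest value in wild type.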
